A study of Mus musculus with 54 samples.

Results

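After weaning, the milk-secreting mammary gland dismantles itself in a process called involution. In its early, reversible phase the alveoli stay intact while secretory cells are shed and die, and the return of the pups restarts lactation. In the later, irreversible phase matrix-degrading proteases, collapsing alveoli, incoming macrophages and refilling adipocytes rebuild the gland as a fatty tissue. STAT3 signalling starts the death of the secretory cells, and neighbouring epithelial cells and macrophages clear the remains by efferocytosis, the engulfment of dying cells. The comparison of involution day 3 with involution day 2 covers the step between these phases in the mouse.

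The comparison used 6 of the 54 arrays of the series, chosen by their titles: 3 from involution day 2 and 3 from involution day 3. Each array measured total RNA of an inguinal (fat pad) mammary gland, taken without its lymph node, from a different mouse, so that the replicates are separate animals. Mating took place at an age of 12 weeks, and forced weaning removed the pups after 7 days of lactation. The series follows the gland over 18 time points with 3 mice each, and the letters A, B and C name the mice of a time point. The labels name no genotype or treatment other than weaning, and the strain is not given here. The values are MAS5 signals, a brightness per probe set on a linear scale, and whole-gland RNA cannot tell fewer cells of a type from less RNA per cell.

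The 6 arrays were close to each other. Across 7311 genes the log2 signals correlated at 0.952 to 0.962 within day 2, at 0.947 to 0.965 within day 3 and at 0.935 to 0.959 between the days, as a description of arrays that share probes and scaling. Day 2 with day 1 gave 0.909 to 0.938. The array of mouse A of day 3 was closest to a day 4 array (r = 0.962), while the other 5 were closest to an array of their own day. RNA integrity, read as beta-actin control signal at the 3′ end over that at the 5′ end, was 1.38 to 1.82 at day 2 and 1.45 to 1.57 at day 3. Milk transcripts marked the tissue: 8 milk protein genes held 2.48% to 2.77% of all signal at day 2 and 2.09% to 2.74% at day 3, against 4.66% to 4.81% at lactation day 7.

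The mice of day 3 were not alike in Arl2bp, which encodes a binding partner of the ARL2 GTPase. Its signal was 94.7, 95.6 and 79.6 in mice A, B and C of day 2 and 84.3, 415.6 and 410.6 in mice A, B and C of day 3. Glo1, the glyoxalase that detoxifies methylglyoxal, gave 295.4, 275.1 and 313.6 at day 2 and 308.9, 152.1 and 142.7 at day 3. Mouse A of day 3 thus had the day 2 levels of both genes, whereas mice B and C of day 3 had more Arl2bp and less Glo1. The labels do not say whether these mice share a colony or strain with the others. With only mouse A of day 3 at the day 2 levels, the day and the origin of mice B and C cannot be told apart. This holds for every difference below that uses day 3. Neither gene passed the test between the days (adjusted p of 1.0 for both, limma). With both as covariates 0 genes were called, as without them, but other values of the fit changed. The smallest adjusted p was 0.086 with them and 0.272 without (limma). At an unadjusted p under 0.05, 201 genes were higher and 153 lower with them, against 148 and 127 without.

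No gene passed the test between involution day 3 and day 2. With limma's moderated test over all 54 arrays and Benjamini-Hochberg adjustment, 0 of 7311 genes (0%) were called at an adjusted p under 0.05, and the smallest adjusted p was 0.272. Without adjustment 148 genes were higher (2.02%) and 127 lower (1.74%) at day 3 at p under 0.05, which is 3.76% of the genes. The 3 signals of day 3 lay all above those of day 2 for 365 genes (4.99%) and all below for 446 (6.1%). A gene that misses the threshold is not shown to be level: the median standard error of a log2 difference was 0.29. It rests on a spread pooled over all 54 arrays, and was 0.21 in a fit of only the 6 arrays. The 95% interval lay within a 2-fold change in both directions for 5223 genes (71.4%) and within 4-fold for 7194 genes (98.4%).

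**Figure D1:**
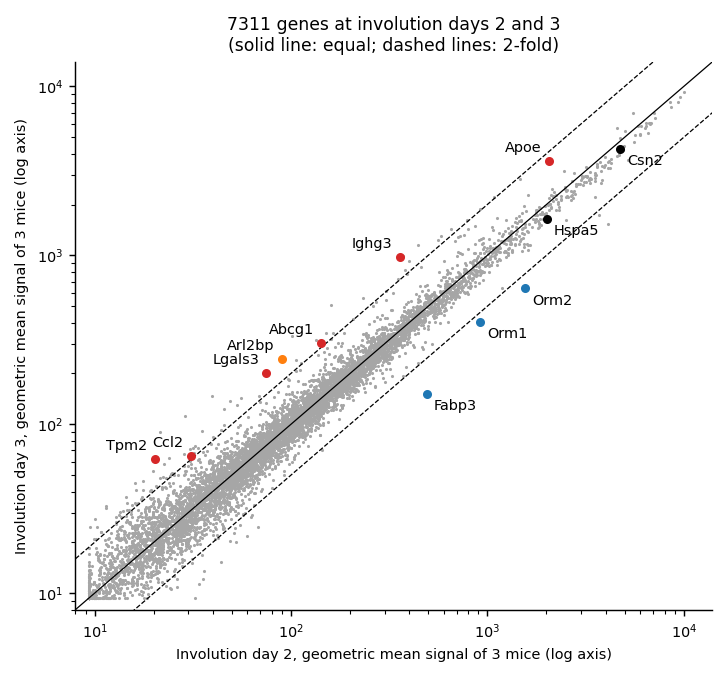
Each grey point is a gene, placed at its geometric mean signal over 3 mice at involution day 2 (x, log axis) and at involution day 3 (y, log axis); the solid line marks equal signals and the dashed lines a 2-fold difference. Most of the 7311 genes lie between the dashed lines, with 88 above the upper line and 29 below the lower; red, blue, orange and black points are genes named in the text.

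The step was smaller than its neighbours. The median size of a log2 difference over all genes was 0.31 from day 1 to day 2, 0.17 from day 2 to day 3 and 0.24 from day 3 to day 4. The genes that differed by more than 2-fold numbered 530, 117 and 294 in these steps. The same fit called 554 genes (7.58%) between day 2 and day 1, 317 higher (4.34%) and 237 lower (3.24%) at day 2. It called 111 genes (1.52%) between day 4 and day 3, 68 higher (0.93%) and 43 lower (0.588%) at day 4. The mice of both days did not overlap for 28.3% of the genes in the step before and 21.9% in the step after, beside 11.1% in the step to day 3. These comparisons share the arrays of days 2 and 3 with the step to day 3. RNA integrity was not equal over these days. The 3′ over 5′ ratio of the Gapdh control was 3.50, 1.33 and 2.29 in mice A, B and C of day 1. It was 0.85 to 1.19 at days 2 and 3, and 0.93, 4.39 and 0.96 in mice A, B and C of day 4. The part of RNA integrity in the sizes of the steps was not tested. Across the longer span from day 1 to day 3, 879 genes (12%) were called, 487 higher (6.66%) and 392 lower (5.36%) at day 3. The 487 genes had a median difference of 1.00 from day 1 to day 2 and 0.26 from day 2 to day 3, and the 392 genes had -0.70 and -0.19. From day 2 to day 4, 451 genes (6.17%) were called. The 294 higher ones (4.02%) had a median of 0.41 to day 3 and 0.79 from there to day 4, and the 157 lower ones (2.15%) had -0.34 and -0.74.

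Of the genes named below, 31 come from a fixed list of milk, defence, protease, adipocyte and STAT3 genes, of which 25 were tested, 1 (Mmp2) was too dim and 5 had no probe set matched to them alone. All others were chosen after their values were seen. The gene lists describe 43 processes and cell types, and 0 of their members were called in the step to day 3. Of the 37 lists with 10 or more tested members, 32 had a median log2 difference between -0.25 and 0.25, beside -0.01 over all genes.

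**Figure D2:**
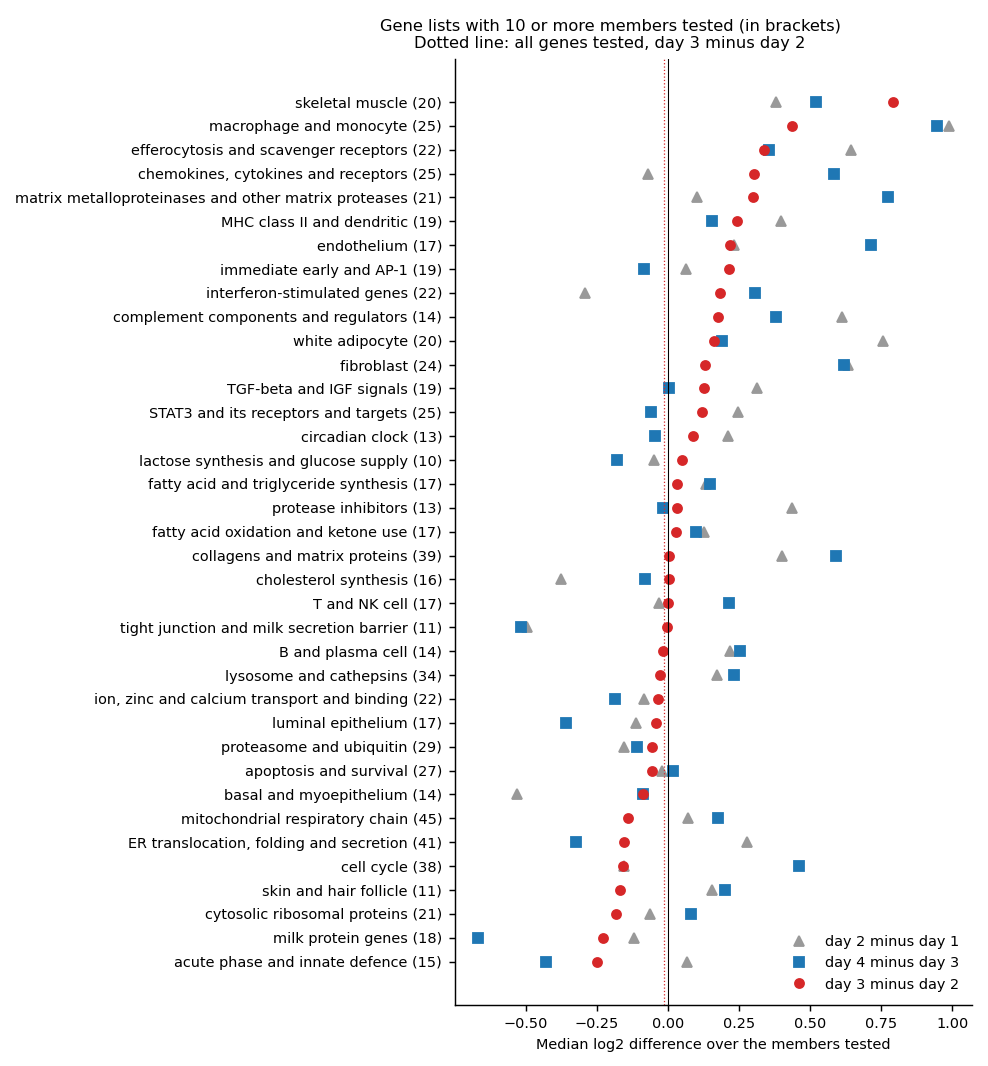
Median log2 difference over the tested members of each gene list (rows, number of members in brackets) for day 2 minus day 1 (grey triangles), day 3 minus day 2 (red circles) and day 4 minus day 3 (blue squares); no error is drawn, and the steps share arrays. In the step to day 3 the skeletal muscle list has the highest median, 0.79, and the acute phase list the lowest, -0.25.

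No milk protein gene passed the test, and their intervals were wide. Each error rests on the gene's spread pooled over all time points of the series, not on the mice of days 2 and 3 alone. Of 18 tested, 0 were above and 18 were below their day 2 mean, with a median log2 difference of -0.23, and 0 were called. Beta-casein (Csn2) gave signals of 5485.5, 4593.7 and 4257.5 at day 2 and 4411.1, 3835.2 and 4564.6 at day 3. Its log2 difference was -0.16 ± 0.67 (pooled SE, means of n = 3 + 3), with a 95% interval of -1.52 to 1.20. The whey protein gene Wap gave 10004.9, 9836.8 and 8782.7 at day 2 and 8239.1, 7539.4 and 10498.2 at day 3, a difference of -0.14 ± 0.78. In both genes the mice of the 2 days overlapped. Lalba, the regulatory subunit of lactose synthase, was spread more widely, with 4333.8, 4841.3 and 6735.0 at day 2 and 2268.5, 3617.8 and 6111.8 at day 3 (-0.50 ± 0.72). Its mean signal was 838.5 at day 4. Between day 2 and day 4, 6 of the 18 list members were called lower, beside 2.15% of all genes.

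The spread among the day 3 mice was large in this list. The mean log2 signal of its members, counted from the mean of the 6 arrays, was 0.19, 0.06 and 0.24 in mice A, B and C of day 2 and -0.51, -0.18 and 0.20 in those of day 3. Glycam1, a mucin-like milk protein, showed it most, with 345.6 in mouse A of day 3 against 2851.6 and 3680.2 in mice B and C. Without mouse A of day 3 the median of the list was -0.15, and it was -0.12 after quantile normalization. Xdh, the xanthine oxidoreductase of the milk fat globule membrane (-0.83 ± 0.39), and Cel, the bile salt-stimulated lipase of milk (-0.63 ± 0.30), had an unadjusted p under 0.05, and each fell between day 1 and day 3 (adjusted p = 0.011 and 0.0069, limma).

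Fabp3, the fatty acid binding protein of heart and lactating mammary epithelium, had the largest difference of the brown adipocyte list in which it was placed. Its signal was 495.7, 372.0 and 644.2 at day 2 and 100.7, 98.8 and 350.4 at day 3. All 3 mice of day 3 lay below those of day 2, and mouse C of day 3 was nearest to them. The log2 difference was -1.70 ± 0.41, a 3.24-fold lower mean, with an adjusted p of 0.302. The drop from day 3 to a mean signal of 30.8 at day 4 was called (adjusted p = 0.0012, limma), as was the span from day 2 to day 4 (adjusted p = 5.2e-09, limma). Without mouse C of day 3 the step to day 3 was -2.30 and passed the test (adjusted p = 0.0068), while without any other mouse of the 6 it did not.

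The acute phase list held 3 genes above and 12 below their day 2 mean, with a median of -0.25 and 0 called. The median was -0.10 after quantile normalization, -0.13 without mouse A of day 2 and -0.12 without mouse B of day 3. Orm1, an acid glycoprotein of the acute phase response, had signals of 951.7, 655.0 and 1227.9 at day 2 and 351.6, 457.2 and 410.7 at day 3. The groups did not overlap, and the difference was -1.18 ± 0.37 (adjusted p = 0.701, limma). Orm2, its close paralog, with which probes may cross-hybridise, gave 2386.2, 876.2 and 1792.5 at day 2 and 229.3, 1029.2 and 1099.4 at day 3. Here the groups overlapped, since mouse B of day 2 lay under mice B and C of day 3 (-1.28 ± 0.56). The lipopolysaccharide sensors Cd14 (-0.16 ± 0.29) and Lbp (-0.27 ± 0.22), and Saa3, a serum amyloid A of the gland (-0.43 ± 0.43), overlapped between the days. Cd14 held mean signals of 6722 at day 2 and 5998 at day 3, far above its 1386 at lactation day 7. Lbp fell in the step after, to 1704 at day 4 from 3158 at day 3 (adjusted p = 0.024), and the difference between its steps was not called.

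Of the 25 tested members of the STAT3 list 18 were above 0, with a median of 0.12 and 0 called. Stat3 gave 529.8, 694.9 and 729.5 at day 2 and 716.0, 783.8 and 866.2 at day 3 (0.29 ± 0.24). Osmr, the oncostatin M receptor that activates STAT3 in the gland, gave 275.8, 318.5 and 253.1 and then 405.9, 322.6 and 374.8. The 3 mice of day 3 were all higher, with mouse B barely so, and the difference was 0.38 ± 0.32. The feedback inhibitor Socs3 (0.05 ± 0.33) and Stat5a, the transducer of prolactin signals in lactation (-0.15 ± 0.17), overlapped. Il6st, the shared receptor chain gp130, rose from day 1 to day 2 (adjusted p = 4.3e-05), and its further 0.45 ± 0.19 to day 3 was not called (unadjusted p = 0.027).

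Genes of cell death and survival were not called either. The list of 27 had a median of -0.05, with 11 above and 16 below 0. The survival gene Bcl2l1, which encodes Bcl-xL, gave 230.8, 293.8 and 247.5 at day 2 and 312.3, 281.6 and 286.6 at day 3 (0.20 ± 0.21). Clu, which encodes the secreted chaperone clusterin, a long-used marker of involution, gave signals between 2846.9 and 3361.0 at day 2 and between 2224.1 and 4044.2 at day 3 (-0.05 ± 0.22). Tgfb3, an early death signal of the alveolus, gave 0.13 ± 0.26, and its means of 855 and 933.4 stood over a mean of 185.8 at lactation day 7.

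Most genes for engulfing dying cells and exporting their lipid had higher means at day 3, without passing the test. In the efferocytosis and scavenger receptor list 18 of 22 tested members were above their day 2 mean, the median difference was 0.34, and 4 had an unadjusted p under 0.05, all higher, beside 2.02% of all genes. Abcg1, a sterol exporter, gave 128.1, 236.7 and 94.7 at day 2 and 355.9, 300.9 and 255.8 at day 3. Abca1, which loads cholesterol onto apolipoproteins, gave 179.1, 210.2 and 137.9 and then 360.0, 300.3 and 258.0. All mice of day 3 were above all mice of day 2 in both genes, and mouse B of day 2 came closest.

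The log2 difference was 1.08 ± 0.29 for Abcg1 (adjusted p = 0.445, limma) and 0.81 ± 0.37 for Abca1 (adjusted p of 1.0). Apoe, the apolipoprotein that takes up exported cholesterol, gave 1914.4, 3072.4 and 1463.7 at day 2 and 4735.7, 3280.8 and 2995.1 at day 3. Mouse C of day 3 lay just under mouse B of day 2, and the difference was 0.81 ± 0.25 (adjusted p = 0.701). Rac1, the GTPase that drives the engulfing membrane, gave 1284.1, 1301.4 and 1163.9 and then 1754.4, 1719.4 and 1412.1 (0.38 ± 0.15). The engulfment receptor gene Mertk gave 19.9, 31.4 and 9.4 and then 31.5, 15.8 and 24.1, close to the floor and overlapping (0.34 ± 0.37). Without mouse C of day 2 the difference of Mertk was -0.13. Over the longer span from day 1 to day 3, 12 of the 22 list members were called higher, beside 6.66% of all genes. Among them Abca1 rose by 3.96 on the log2 scale (adjusted p = 7.3e-10, limma), Abcg1 by 1.83 (adjusted p = 2e-05) and Apoe by 1.74 (adjusted p = 4.1e-06). Abca1 had already risen by 3.15 of that by day 2 (adjusted p = 1.4e-07), while the 0.75 of Abcg1 by then was not called (adjusted p = 0.11).

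**Figure D3:**
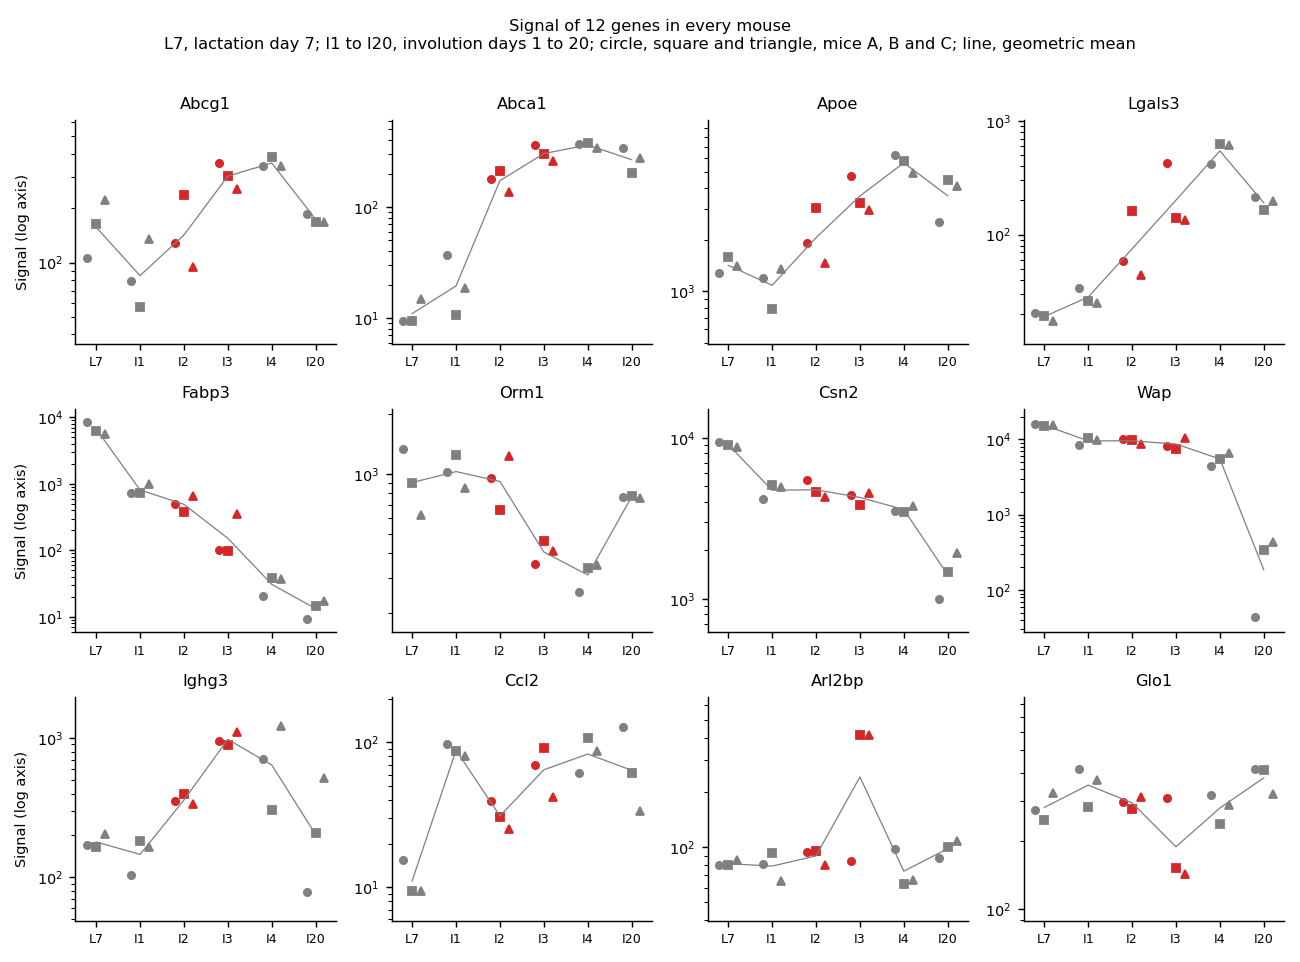
Signal (log axis) of 12 genes in each mouse of lactation day 7 (L7) and involution days 1, 2, 3, 4 and 20 (I1 to I20), with mice A, B and C as circle, square and triangle, days 2 and 3 in red and a line through the geometric means. Abcg1 reads 94.7 to 236.7 at day 2 and 255.8 to 355.9 at day 3, Fabp3 reads 372.0 to 644.2 and then 98.8 to 350.4, and Arl2bp is split in the mice of day 3.

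Macrophage genes had higher means at day 3 as well, with mouse A of day 3 high and mouse C of day 2 low. In the macrophage and monocyte list 21 of 25 tested members were above their day 2 mean, with a median of 0.44, and 0 were called. Lgals3, the galectin of activated macrophages, gave 58.8, 161.3 and 44.5 at day 2 and 425.6, 140.7 and 135.7 at day 3, a difference of 1.42 ± 0.40 (adjusted p = 0.583). Mouse A of day 3 was far above the other 5, and mouse B of day 2 was above mice B and C of day 3. Cd68, a lysosomal protein of phagocytes, gave 318.7, 270.7 and 175.2 and then 557.9, 306.3 and 222.0 (0.44 ± 0.31). The lysozyme gene Lyz2 gave 554.7, 618.7 and 346.6 and then 767.6, 659.1 and 583.7 (0.44 ± 0.26). Csf1r, the receptor that keeps macrophages alive, gave 233.5, 381.3 and 189.3 and then 454.1, 276.6 and 266.3 (0.33 ± 0.25). In each of these 4 genes mouse C was the lowest of day 2 and mouse A the highest of day 3. The other probe sets of Cd68 and Lyz2 each gave a difference of 0.00, and that of Csf1r gave 0.08. The macrophage marker gene Adgre1 gave 0.12 ± 0.42, and its other probe set gave -0.04.

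The mean of the macrophage list, counted from the 6-array mean, was -0.05, 0.09 and -0.61 in mice A, B and C of day 2 and 0.57, 0.10 and -0.10 in those of day 3, so the groups overlapped. Leaving out mouse C of day 2 brought the median of the list from 0.44 to 0.19, and leaving out mouse A of day 3 brought it to 0.20. The efferocytosis list, which shares the C1q genes, Msr1, Trem2 and Tyrobp with it, went from 0.34 to 0.14 and 0.17. Whether the difference in efferocytosis genes goes with macrophage content was not tested. Steps on both sides of it were called in the macrophage list. From day 1 to day 2, 11 of the 25 members were called higher, beside 4.34% of all genes. From day 3 to day 4, 3 were called higher, beside 0.93%.

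Without mouse B of day 2, 7 features were called, all higher at day 3, and mouse B had the highest signals of its day in the 5 named ones. They were Abcg1 (1.45, adjusted p = 0.030), Lgals3 (1.97, adjusted p = 0.033), Il1rn (2.08, adjusted p = 0.034), Vcam1 (2.05, adjusted p = 0.029) and Plxnd1 (1.95, adjusted p = 0.020). Il1rn encodes the antagonist of the interleukin-1 receptor and Vcam1 an adhesion molecule for leukocytes on activated endothelium. With all 6 mice Il1rn gave 12.5, 47.1 and 9.4 at day 2 and 58.6, 38.8 and 42.5 at day 3, and Vcam1 gave 28.1, 88.0 and 9.4 and then 101.5, 71.8 and 41.5. Both overlapped through mouse B of day 2 alone, and 9.4 is the floor below which signals were not read.

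The chemokine and cytokine list had a median of 0.30, with 19 of 25 members above 0, but 0.03 without mouse A of day 3 and 0.18 without mouse C of day 2. Ccl2, the chemokine that recruits monocytes, gave 39.1, 30.5 and 25.1 at day 2 and 70.1, 91.8 and 42.1 at day 3. All mice of day 3 were above those of day 2 (1.06 ± 0.33, adjusted p = 0.701). Ccl2 had fallen from day 1 to day 2 (adjusted p = 0.003), when its signals were 97.0, 87.4 and 81.1, so that its day 3 signals overlapped those of day 1.

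Matrix-degrading proteases, which mark the irreversible phase, were not called in the step to day 3. Of 21 tested, 15 were above their day 2 mean, with a median of 0.30. The median was 0.02 without mouse A of day 3 and 0.15 without mouse C of day 2. Over the span from day 2 to day 4, 10 of the 21 were called higher, beside 4.02% of all genes. Stromelysin-1 (Mmp3) gave 416.7, 413.1 and 204.9 at day 2 and 838.3, 385.0 and 330.6 at day 3 (0.53 ± 0.45). Mouse A of day 3 was high, and the other mice overlapped. Mmp3 rose between day 1 and day 2 (adjusted p = 0.0043) and over the span from day 2 to day 4 (adjusted p = 0.044). Stromelysin-3 (Mmp11) gave 13.9, 50.4 and 19.5 and then 46.4, 51.5 and 38.3 (0.91 ± 0.42, unadjusted p = 0.036).

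The membrane-bound protease Mmp14 gave 239.0, 270.0 and 138.5 and then 408.3, 192.9 and 308.8 (0.48 ± 0.36). Gelatinase B (Mmp9) was at the floor in all mice of day 2 and in mice B and C of day 3, with 19.7 in mouse A. The urokinase gene Plau (0.30 ± 0.57) overlapped between the days, and its receptor Plaur gave 9.4, 27.1 and 9.4 and then 27.5, 38.2 and 23.5 (1.12 ± 0.44, adjusted p of 1.0, limma). Plaur overlapped too, since mouse B of day 2 was above mouse C of day 3. Of the protease inhibitors, Timp1 gave -0.22 ± 0.30 and Timp3 0.48 ± 0.32, and both overlapped. Timp1 had fallen from day 1 to day 3 (adjusted p = 0.019) and Timp3 had risen (adjusted p = 0.037).

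The adipocyte list held 14 of 20 members above 0, with a median of 0.16, and 0 called. The median was 0.03 to 0.05 without mouse A or C of day 2 or mouse A of day 3, and was 0.32 without mouse B of day 2. Adipoq, which encodes the fat hormone adiponectin, gave 1541.3, 1654.9 and 1310.2 at day 2 and 2512.3, 1783.8 and 1279.7 at day 3 (0.26 ± 0.22). Mouse A of day 3 was the highest and mouse C of day 3 the lowest of the 6. Adipoq rose from day 1 to day 2 (adjusted p = 0.00039) and from day 2 to day 4 (adjusted p = 0.012). From day 1 to day 2, 9 of the 20 adipocyte genes were called higher, beside 4.34% of all genes. Of the 17 tested luminal epithelium genes 7 were above and 10 below 0, with a median of -0.04 and 0 with an unadjusted p under 0.05 or called by limma. Among them the keratin gene Krt8 gave 1136.6, 1032.6 and 1178.9 and then 2080.3, 1466.5 and 1519.9, with no overlap (0.58 ± 0.32, unadjusted p = 0.073), and its partner Krt18 gave 0.40 ± 0.31, with mouse A of day 2 above mouse B of day 3.

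**Figure D4:**
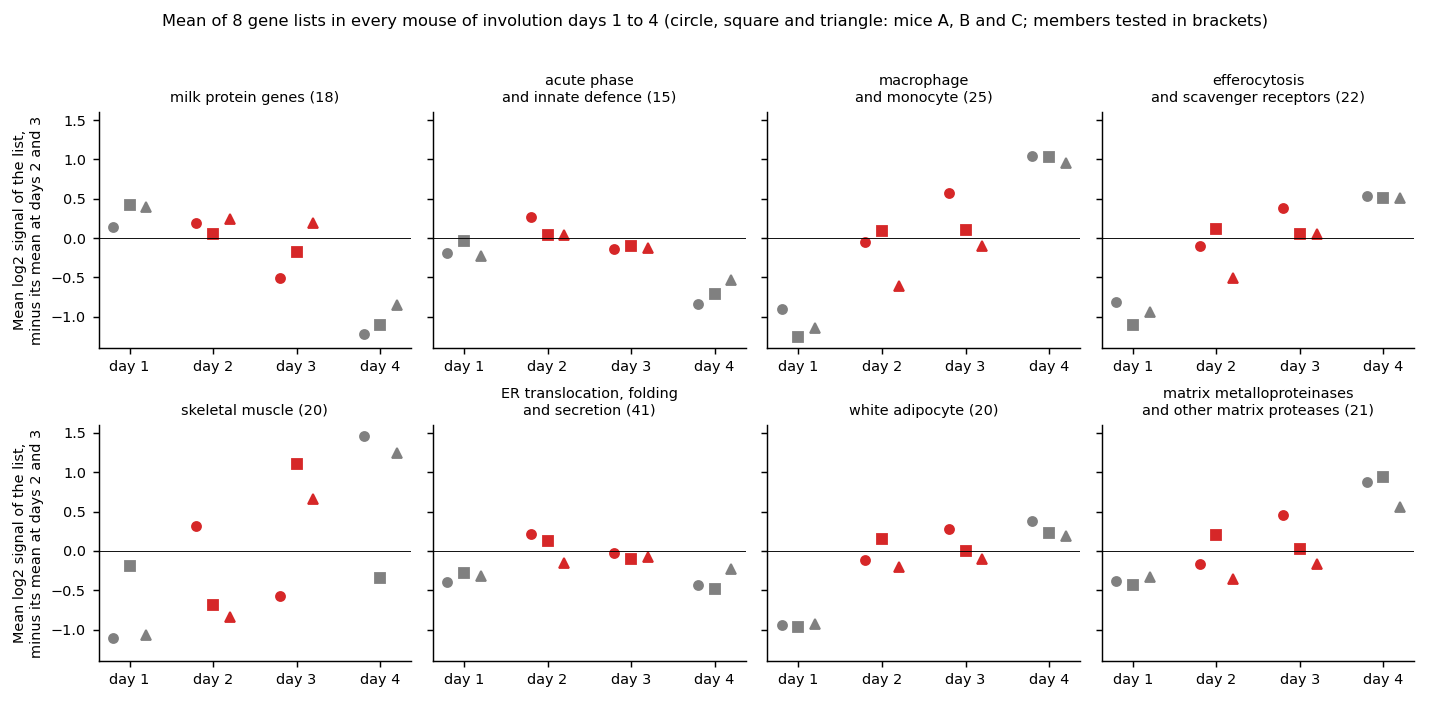
Mean log2 signal of 8 gene lists in each mouse of involution days 1 to 4 (circle, square and triangle for mice A, B and C; days 2 and 3 in red), counted from the mean of the 6 arrays of days 2 and 3; the number of members tested is in brackets. Mouse A of day 3 is the lowest of its day in milk protein genes (-0.51) and the highest in macrophage genes (0.57), and the skeletal muscle genes split the mice of both days.

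Skeletal muscle markers were spread widely among the mice of each day. The list had the highest median of all lists, 0.79, with 19 of 20 tested members above 0, but 0 called. Acta1, the skeletal alpha-actin, gave 337.7, 82.2 and 38.0 in mice A, B and C of day 2 and 111.4, 855.9 and 394.2 in those of day 3. The fast myosin Myh4 gave 200.2, 20.3 and 15.4 and then 35.6, 317.7 and 278.7. Mouse A was the highest of day 2 and the lowest of day 3 in both genes. The other probe set of Myh4 went the other way, with a log2 difference of -0.56. The median of the list was 1.27 without mouse A of day 3 and 0.52 without mouse B of day 3. The mean of the list was 0.32, -0.68 and -0.84 at day 2 and -0.57, 1.11 and 0.67 at day 3. Tpm2, a beta-tropomyosin of muscle and myoepithelium, gave 20.3, 31.9 and 12.9 and then 48.6, 100.1 and 49.8 (1.62 ± 0.53, adjusted p = 0.814), with no overlap. Mice B and C of day 3, which were high in muscle genes, were also the mice with high Arl2bp, and their part in the difference of Tpm2 was not tested.

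Antibody transcripts had higher means at day 3 for most of their probe sets, and none passed the test. Lactating glands host plasma cells, which secrete immunoglobulin A with the joining chain into milk. Of 27 features named after an immunoglobulin gene or the joining chain, 22 were above and 4 below their day 2 mean, and the 3 mice of day 3 lay all above for 14 and all below for 0, beside 4.99% and 6.1% of all genes. The median log2 difference was 0.56, and 0 were called. The features were grouped after their values were seen and form none of the gene lists, so these shares are no test of a change. These features are not independent, because the gene segments are alike in sequence and 17 of the probe sets carry a suffix that marks shared or less specific probes.

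Ighg3, the constant region of an immunoglobulin G, gave 351.3, 394.3 and 334.0 at day 2 and 953.1, 897.5 and 1100.6 at day 3. The mice of each day were close to each other and the days did not overlap, with a difference of 1.45 ± 0.47 (adjusted p = 0.814, limma). Over 20 alternatives Ighg3 was never called, and its lowest adjusted p was 0.062 (limma). Day 1 gave 104.2, 181.3 and 165.8, and the span from day 1 to day 3 was called (2.74, adjusted p = 8.3e-05). At day 4 the mice were spread over 705.7, 305.0 and 1226.4. Igha, of the immunoglobulin A of milk, gave 4847.9, 3979.8 and 4920.0 and then 5374.9, 5151.3 and 6664.3 (0.32 ± 0.36), and Jchain, the joining chain, gave 633.0, 654.0 and 535.7 and then 940.9, 1004.8 and 829.7 (0.61 ± 0.39). Both were higher in all mice of day 3. Ighm, of immunoglobulin M, gave -0.03 ± 0.43 with its brightest probe set. The probe sets of these genes disagreed: the other 15 of Ighm gave 0.00 to 1.34, the other 6 of Ighg3 gave -0.26 to 1.20 and the other 2 of Igha gave 0.26 and 0.63. The B and plasma cell marker list of 14 genes had a median of -0.02. The mean over the 27 features, from the 6-array mean, was -0.31, -0.18 and -0.30 at day 2 and 0.18, 0.29 and 0.32 at day 3. All mice of day 3 were above all mice of day 2 in this mean, which was -0.85 to -0.63 at day 1 and -0.23 to 0.48 at day 4.

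Genes of the endoplasmic reticulum that rose up to day 2 were not called again in the step to day 3. The list of endoplasmic reticulum genes for translocation, folding and secretion had a median of 0.28 from day 1 to day 2. In that step 10 of its 41 members were called, all higher, beside 4.34% of all genes called higher. In the step to day 3, 34 of 41 members were below their day 2 mean, with a median of -0.15 (-0.08 without mouse A of day 2, -0.24 without mouse C) and 0 called. Hspa5, the lumenal chaperone BiP, gave 897.9, 625.5 and 450.4 at day 1, then 2824.0, 2108.5 and 1360.8 at day 2 and 1997.7, 1441.9 and 1555.4 at day 3. It rose by 1.67 to day 2 (adjusted p = 1.0e-05), and its next difference was -0.28 ± 0.24. The steps differed by -1.95 ± 0.42 (adjusted p = 0.035, limma). Manf, a secreted factor of stressed endoplasmic reticulum, gave 843.2, 631.9 and 414.4 at day 2 and 594.2, 432.8 and 401.9 at day 3. It had risen by 1.81 to day 2 (adjusted p = 1.8e-06), and its steps differed by -2.17 ± 0.41 (adjusted p = 0.0085).

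The calls did not hold without single mice. Without mouse A of day 2, which had the highest signals, the difference between the steps was -1.46 for Hspa5 (adjusted p = 0.53) and -1.69 for Manf (adjusted p = 0.28). Without mouse B of day 2 it was -1.88 for Hspa5 (adjusted p = 0.25) and -2.11 for Manf (adjusted p = 0.11). Without mouse B or C of day 3 it was -1.86 (adjusted p = 0.11) and -1.91 (adjusted p = 0.070) for Hspa5, while Manf stayed called. Of 18 alternatives Hspa5 was called in 9 and Manf in 15.

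The promoters of several of these 10 genes hold the letters that stress factors of the endoplasmic reticulum read. The stretches are shown because the element is a textbook feature of BiP, and a match among such genes is no test of shared control. The search covered the endoplasmic reticulum stress element, CCAAT and CCACG with 9 bases of any kind between them, and its variant, ATTGG and CCACG with 1 base of any kind between them, on both strands, in RefSeq promoters of build GRCm38.p6, from 250 bases before to 50 after the start. Both motifs end in CCACG, no gene of the list held both, and they were chosen after the values were seen. The element was found in 10 of 5158 tested genes with a promoter in the table (0.194%) and the variant in 7 (0.136%). Of the 10 genes that rose, 9 had a promoter there, 3 held the element and 2 the variant. Of the 36 genes of the whole list with a promoter, 5 held the element and 2 the variant. Canx and Pdia6 held the element too and were not called higher at day 2. A match is a description of the letters, not a shown binding site. The stretches run 5′ to 3′ on the strand of the gene, with the element, or in Herpud1 the variant, in capitals.
Hspa5, chr2:34771985-34772083, plus strand: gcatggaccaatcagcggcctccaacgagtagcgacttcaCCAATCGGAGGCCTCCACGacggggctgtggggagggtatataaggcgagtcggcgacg
Hsp90b1, chr10:86705598-86705694, minus strand: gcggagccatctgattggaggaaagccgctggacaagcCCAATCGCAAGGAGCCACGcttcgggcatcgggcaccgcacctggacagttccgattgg
Dnajc3, chr14:118937787-118937885, plus strand: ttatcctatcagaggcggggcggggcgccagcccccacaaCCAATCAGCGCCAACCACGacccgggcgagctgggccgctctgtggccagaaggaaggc
Herpud1, chr8:94386337-94386427, plus strand: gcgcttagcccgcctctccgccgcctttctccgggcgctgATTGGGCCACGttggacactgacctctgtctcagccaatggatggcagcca

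In Hspa5 the element lies 65 to 47 bases before the start, in Dnajc3 105 to 87 and in the Hsp90b1 stretch 212 to 194. Hsp90b1 has another copy on the other strand, 107 to 89 bases before the start. In Herpud1 the variant lies 52 to 42 bases before the start. Hsp90b1 encodes the chaperone GRP94, Dnajc3 a lumenal co-chaperone and Herpud1 a factor for degrading misfolded proteins. Hsp90b1 gave 2244.1, 1983.1 and 826.2 at day 2 and 1686.1, 1049.1 and 1382.0 at day 3 (-0.20 ± 0.28). Dnajc3 gave 262.5, 236.0 and 142.1 and then 190.1, 159.6 and 150.3 (-0.32 ± 0.28). Herpud1 gave 237.7, 221.9 and 183.3 and then 195.4, 202.7 and 194.6 (-0.11 ± 0.23). All overlapped between the days, and mouse C was the lowest of day 2 in each.

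**Figure D5:**
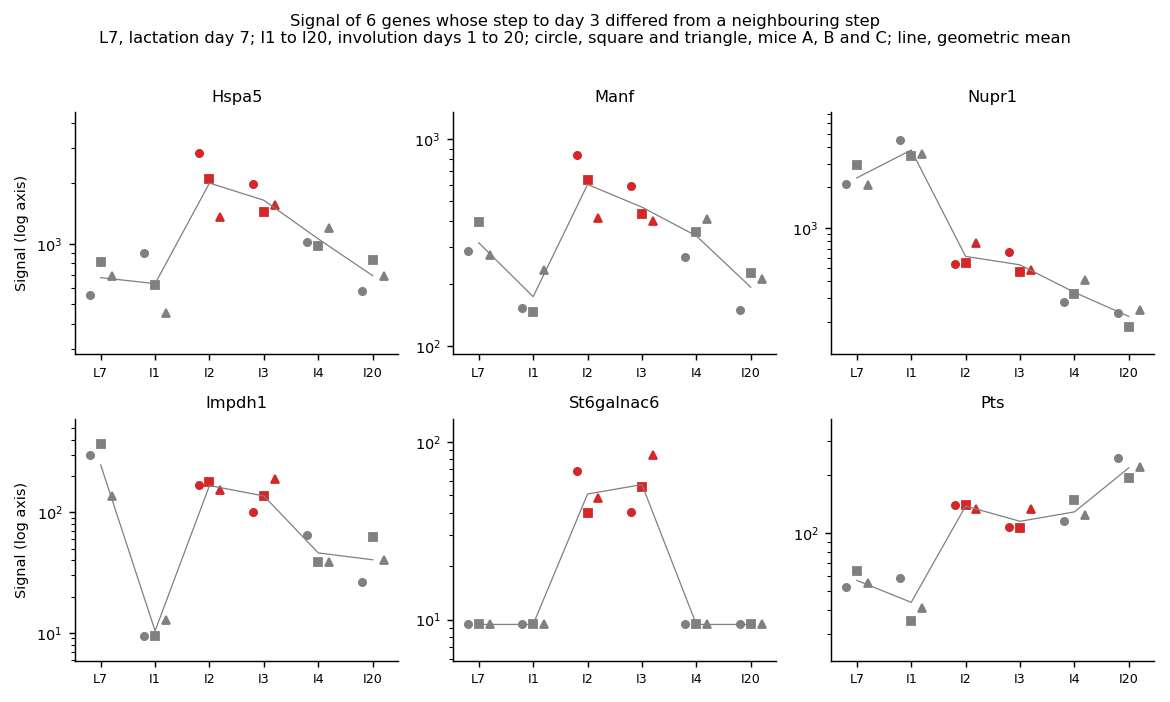
Signal (log axis) of 6 genes in each mouse of lactation day 7 (L7) and involution days 1, 2, 3, 4 and 20 (I1 to I20), with mice A, B and C as circle, square and triangle, days 2 and 3 in red and a line through the geometric means. Hspa5, Manf, Impdh1 and Pts rise from day 1 to day 2, Nupr1 falls, and none of them passed the test from day 2 to day 3; St6galnac6 is above the floor of 9.4 only at days 2 and 3.

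Besides Hspa5 and Manf, 5 genes had a step to day 3 that differed from the step before, which makes 7 of 7311 (0.0957%), and 1 gene had a step that differed from the step after (0.0137%). Nupr1, a small stress-induced nuclear protein, gave 4515.9, 3397.5 and 3564.1 at day 1, then 540.8, 549.9 and 773.2 at day 2 and 659.9, 467.3 and 482.7 at day 3. Impdh1, an enzyme of guanine nucleotide synthesis, gave 9.4, 9.4 and 12.7 at day 1, then 169.2, 179.5 and 152.4 at day 2 and 100.2, 136.0 and 187.1 at day 3. Both overlapped from day 2 to day 3. Impdh1 had a mean of 247.4 at lactation day 7, so day 1 was a low between higher days, and it fell again from day 3 to a mean of 46.0 at day 4 (-1.57, adjusted p = 0.021, limma). St6galnac6, a sialyltransferase, was at the floor in the 3 mice of day 1 and of day 4, with 68.8, 39.6 and 48.2 at day 2 and 40.5, 55.9 and 83.7 at day 3. Its difference from day 2 to day 3 was 0.18 ± 0.25, with a 95% interval of -0.32 to 0.68, and the mice of these days overlapped.

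The cell cycle list had a median of -0.16, with 26 of 38 members below 0 and 0 called. Mki67, the proliferation antigen, gave 25.4, 13.4 and 18.5 at day 2 and was at the floor in the 3 mice of day 3. The other probe set of Mki67 gave a log2 difference of 0.17. Birc5, which encodes survivin, gave 24.7, 25.3 and 34.7 and then 19.5, 9.4 and 19.2. Neither gene was called (adjusted p of 1.0 for both, limma), their signals were close to the floor, and Ube2c, a ubiquitin-conjugating enzyme of mitosis, went the other way, with 9.9, 27.1 and 14.1 and then 38.8, 36.5 and 26.4. The ribosomal protein list had 18 of 21 members below 0 and a median of -0.18 (-0.08 after quantile normalization). Rps10, a protein of the small subunit, gave 3368.6, 3424.2 and 3179.0 and then 2821.2, 2542.9 and 2667.0, a difference of -0.31 ± 0.14 with no overlap and an adjusted p of 1.0.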

How the data were processed

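The series holds 54 Affymetrix arrays of mouse mammary gland RNA with 12488 probe sets. The deposited values are signal intensities that the authors computed with MAS5, per the submitters' processing notes; the MAS5 version was not found in them. The 2% trimmed mean of every involution array was near 100.1, so the arrays share a scale. After removal of 66 controls, signals under 9.4 (the 25th percentile) were set to 9.4 and put on the log2 scale. A probe set was kept if it passed 22.8 (the 40th percentile) on the 3 arrays of any time point (8640 did). The kept probe set with the highest mean stood for a gene, which gave 7311 features, called genes, of which 6441 had 1 symbol in GEO's platform annotation. Probe sets of several or no genes entered the tests unnamed.

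R 4.3.3 and limma 3.58.1 fitted all 54 arrays, with a coefficient for each time point, an intensity trend in the variance and 36 residual degrees of freedom, and tests were two-sided. Called means an adjusted p under 0.05 over 7311 genes. The step to day 3 was also tested against the steps before and after it. The code was tested on simulated data. The precision is limited by 3 arrays a group. Of the planned naming rule, the parts for called genes named none, and a fixed list of 31 genes was named. The planned motif search in promoters of called genes was not run, since 0 were called. The gene lists, the named genes and this comparison were chosen with earlier results of these data known. Alternatives in floor, scaling, filter, probe sets, arrays, variance model, replicate block and covariates were run. Same-letter mice of days 2 and 3 deviated from their group means with correlations of 0.16, -0.03 and 0.15. Mice of unlike letters gave -0.22 to 0.11. With 3 mice a day these values cannot settle whether the letters pair the mice, and the main fit did not pair them.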

Additional observations from a re-analysis of the deposited data

Results flagged for a closer look

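Of the results of the comparison, 8 differences between neighbouring steps passed the test of the difference itself (limma, adjusted p under 0.05), and each is the step to day 3 minus its neighbour on the log2 scale. Against the step before, the difference was -4.29 ± 0.65 for Impdh1, -2.26 ± 0.43 for St6galnac6, -2.17 ± 0.41 for Manf, 2.29 ± 0.42 for H3c8, -1.93 ± 0.39 for Pts, 2.42 ± 0.50 for Nupr1 and -1.95 ± 0.42 for Hspa5. Against the step after, it was 2.79 ± 0.43 for St6galnac6. These differences also use the arrays of day 1 or day 4, where the Gapdh 3′ over 5′ ratio reached 3.50 and 4.39. H3c8, a histone H3 gene, was at the floor of 9.4 on all 6 arrays of days 2 and 3, so its step to day 3 was not measured and the difference stems from its signals of 37.6, 60.9 and 42.1 at day 1. Pts, an enzyme of tetrahydrobiopterin synthesis, gave 140.3, 140.6 and 133.9 at day 2 and 107.8, 106.7 and 132.7 at day 3.

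Impdh1 stayed called under all 18 alternatives that gave a value. Leaving out mouse A of day 2 ended the call against the step before for the other 6: -1.82 for St6galnac6 (adjusted p = 0.25), 2.29 for H3c8 (0.11), -1.46 for Hspa5 (0.53), 2.24 for Nupr1 (0.25), -1.91 for Pts (0.25) and -1.69 for Manf (0.28). Leaving out mouse B of day 2 ended it for H3c8 (2.29, adjusted p = 0.064), Hspa5 (-1.88, 0.25), Nupr1 (2.27, 0.23), Pts (-1.90, 0.16) and Manf (-2.11, 0.11). Leaving out mouse A of day 3 ended it for Nupr1 (2.26, adjusted p = 0.053), mouse B of day 3 for Hspa5 (-1.86, 0.11) and Pts (-1.87, 0.063), and mouse C of day 3 for Hspa5 (-1.91, 0.070) and for St6galnac6 against the step after (2.24, 0.079).

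Other settings ended calls as well, and Hspa5 was called in 9 of 18 alternatives. With no floor, St6galnac6 gave -2.92 (adjusted p = 0.26) against the step before and 3.82 (0.21) against the step after, and H3c8 gave 1.70 (0.83). With the floor at the 40th percentile, St6galnac6 gave -0.98 against the step before (adjusted p = 0.064) and H3c8 gave 1.01 (0.19). With only the 15 involution arrays the adjusted p was 0.23 for St6galnac6 against the step before, 0.25 for it against the step after, 0.096 for H3c8, 0.25 for Hspa5, 0.097 for Pts and 0.23 for Manf. With median scaling it was 0.072 for Hspa5, 0.072 for Nupr1 and 0.10 for Pts. Hspa5 also lost its call with no filter (adjusted p = 0.059), with no intensity trend (0.053) and with Arl2bp and Glo1 as covariates (0.075).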

How the results depend on the processing

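The count of 0 genes between day 3 and day 2 held under 15 of 20 alternatives. It was 8 with the floor at the 40th percentile (7 higher, among them Ccn1, Vav2 and Rad1, and Fabp3 lower), 2 with array quality weights and 0 to 7 with 1 mouse left out. The calls came without mouse B of day 2 (7), mouse A of day 3 (1, a probe set with no gene name) and mouse C of day 3 (2, Fabp3 and Nacc2, both lower). Members of the lists were called with the floor at the 40th percentile (1) and with 1 mouse left out (0 to 4). Steps that differed from the step before numbered 16 with the floor at the 40th percentile, 4 with median scaling, 2 with only the 15 involution arrays, 105 with array quality weights, 13 with the beta-actin ratio as covariate and 1 to 16 with 1 mouse left out, against 7. Steps that differed from the step after numbered 0 without a floor, 8 with the floor at the 40th percentile, 2 with all probe sets, 0 with only the 15 involution arrays, 22 with array quality weights and 1 to 9 with 1 mouse left out, against 1. With the letter as a replicate block, the counts were 0, 10 and 1. Over the alternatives, 836 list medians moved by less than the spread between mice and 24 by more, and the causes were not tested. With only the 6 arrays the differences between steps cannot be computed, and with the filter on days 2 and 3 alone they numbered 7 and 1. A group of 3 mice limits what can be called, and signals near the floor of 9.4 have no order below it.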
